A study of Homo sapiens with 6 samples.

Results

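C-type lectins are proteins built around a compact fold that, in its founding members, binds sugars with the help of calcium. Selectins use it to hold leukocytes to vessel walls, collectins and the receptors of macrophages and dendritic cells use it to recognise microbes and damaged cells, and the lectin receptors of natural killer (NK) cells carry a version of the fold that mostly binds proteins. The genes of this fold were measured here in RKO, a long-established line of human colon carcinoma cells. Most of them are known from blood cells, endothelium or liver, so that an epithelial tumour line is a place where few are known to act. Members were all probe sets of the table whose RefSeq accession led to the symbol of a CLEC, KLR, COLEC, REG (families 1, 3 and 4), selectin, mannose receptor or asialoglycoprotein receptor gene, or to CD69, CD72, CD207, CD209, MBL2 or FCER2. The rule kept 53 of 1259 probe sets, which stood for 48 of 927 named genes; no measured value entered it.

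The study compared 2 populations of RKO with 3 arrays each, numbered 1 to 3 in both. Same-numbered titles also end their short names alike, in a way the labels do not explain, and a fit with the number as a block was an alternative. RKO C2 is a clonal population, and RKO C2 F3 was sorted from it by flow cytometry for low u-PAR, the urokinase receptor. The labels list no agent, transgene or other treatment for either. The titles of all 3 F3 arrays call F3 a clonal population too, although the labels' wording varies between population and clonal population. Each group may therefore stand for 1 clone. The stated aim was to find the glycosylation enzyme whose lack leaves u-PAR immature. The values are log2 expression after RMA, a method that makes the arrays' distributions alike, and the number of arrays limits their precision. The arrays' medians ran from 5.48 to 5.51. Whether the 3 arrays of each population stand for separate cultures is not stated, so the p-values rest on a spread that may be technical. In a cell population measured in bulk, fewer cells expressing a gene and less RNA per cell cannot be told apart.

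Signals of the C-type lectin genes were low in both populations. Of the 53 probe sets, 49 (92.5%) had a mean log2 level below the median of the table, 5.50, where 50% of all probe sets lie. Below the lower quartile of the table, 3.80, lay 32 of them, between it and the median 17, between the median and the upper quartile 3, and above the upper quartile, 7.77, only CLEC11A. The median over the members was 3.55, and their means ran from 2.49 for KLRC1 to 10.88 for CLEC11A. A level also reflects how well the probes bind, and the table carries no detection call, so these positions describe signal, and no member can be called absent or ranked against another by its RNA.

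**Figure D1:**
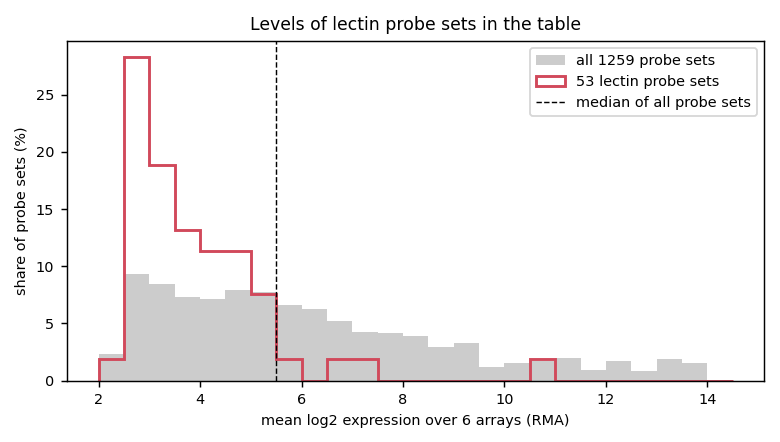
Share of probe sets (%) by mean log2 expression over the 6 arrays in steps of 0.5 log2 units, for the 53 C-type lectin probe sets (red outline) and all 1259 probe sets (grey bars), with the median of all at the dashed line. Of the 53, 49 lie left of the line and CLEC11A stands alone at 10.88.

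No member differed between the populations in limma after Benjamini-Hochberg adjustment over all probe sets (0 of 53, smallest adjusted p = 0.73), where 1 of 1259 probe sets (0.0794%), in a gene outside these families, passed the threshold of 0.05. At an unadjusted limma p under 0.05 there were 3 members (5.66%) beside 5.4% of all probe sets. These were CD72 and 1 of 4 KLRC3 probe sets with positive log2 changes (1.91% of all probe sets were higher at that p) and KLRC1 with a negative one (3.49% were lower). Without C2 replicate 2 the number of members at that unadjusted p was 6 of 53, beside 5.48% of all probe sets in that fit. With the replicate number as a block it was 4 of 53, beside 8.02% of all probe sets. An ordinary two-sample test also called 0 members after adjustment (smallest adjusted p = 0.86) and gave 3 at an unadjusted p under 0.05, beside 5.32% of all probe sets. With 1 value per gene, from its brightest probe set or from the mean of its probe sets, limma called 0 of the 48 genes.

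Log2 changes of the members, given throughout as F3 minus C2, ran from -0.21 to 0.23. Their median was 0.0098, beside -0.0064 over all probe sets, and turned to -0.0034 without F3 replicate 2. The median absolute change was 0.055 among members and 0.047 among all probe sets. Of the members 29 had a positive and 24 a negative change, beside 571 and 688 of all 1259 probe sets. For the members, median centring gave 33 and 20, and repeated quantile normalization 31 and 22. The 95% intervals of all 53 lay between -0.40 and 0.38, each taken on its own. The widest bound corresponds to 1.32-fold on the scale of the RMA signal, which can shrink changes of dim probe sets. The populations did not overlap on any array for 7 members (13.2%), against 10.3% of all probe sets. Of these 5 were higher in F3 (3.81% of all probe sets) and 2 lower (6.51%). The sign was the same in all 3 pairs of same-numbered arrays for 19 members (35.8%), against 29.9% of all probe sets. Of these 19 members 12 were positive and 7 negative, beside 152 positive and 224 negative of all 1259 probe sets.

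F3 replicate 2 held the highest of the 6 values for 16 members (30.2%), against 18.2% of all probe sets. C2 replicate 3 held the lowest for 14 (26.4%), against 15.2%. F3 replicate 3 was highest for 2 (3.77%), against 15.0%. The differences between same-numbered arrays had medians over the members of 0.013, 0.041 and -0.0049 for numbers 1, 2 and 3. The median SD within a population was 0.085 for members and 0.083 for all probe sets.

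**Figure D2:**
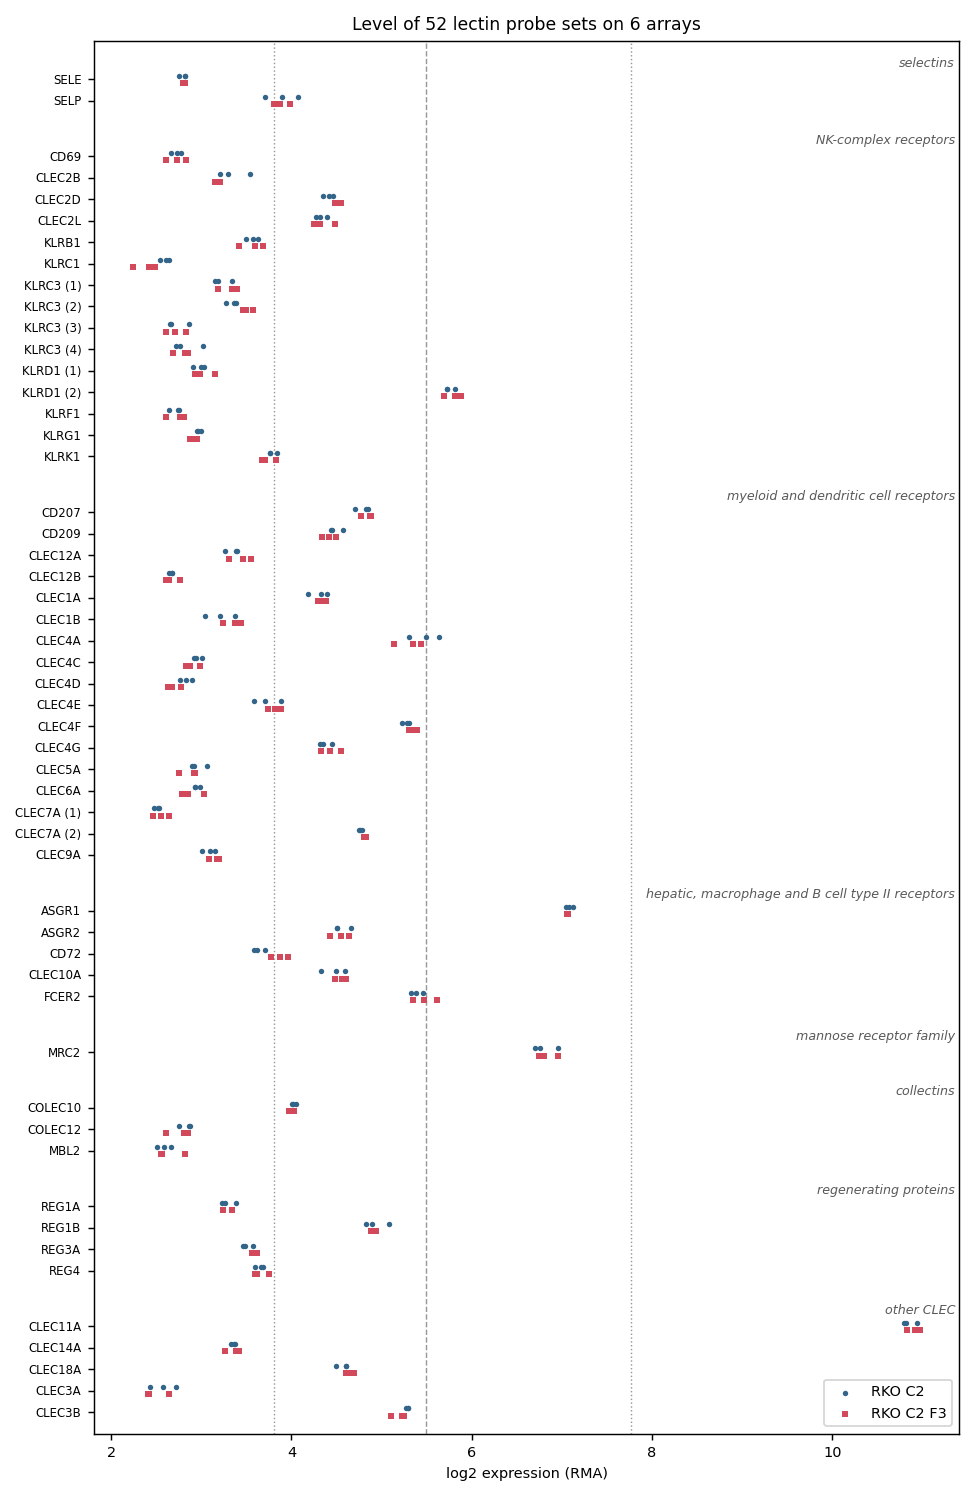
Log2 expression of 52 of the 53 probe sets on the 3 RKO C2 arrays (blue circles) and the 3 RKO C2 F3 arrays (red squares), grouped by family, with the quartiles (dotted) and median (dashed) of all probe sets. Numbers in brackets tell apart the probe sets of 1 gene in the order of their identifiers. The arrays of both populations fall close together for every probe set shown, and CLEC11A, ASGR1, MRC2 and 1 KLRD1 probe set lie right of the median.

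CLEC11A, which encodes a secreted growth factor for blood-forming and bone-forming progenitor cells, was the member with the strongest signal and ranked at the 90.7th percentile of the table. Its log2 expression was 10.95, 10.82 and 10.79 on the C2 arrays and 10.97, 10.91 and 10.83 on the F3 arrays. The populations overlapped, with means of 10.85 ± 0.08 and 10.91 ± 0.07 (SD, n = 3 each), although each F3 array lay slightly above the C2 array of the same number. The log2 change was 0.053 (SE 0.06, 95% interval -0.09 to 0.20, limma adjusted p = 0.998), with a range of 0.018 to 0.099 when single arrays were dropped. The 250 bases before the start of CLEC11A (chr19:50723114-50723363, plus strand), KLRC1 (chr12:10454686-10454935, minus strand) and KLRC3 (chr12:10420596-10420845, minus strand) are shown. CLEC11A was chosen as the member with the highest signal, and KLRC1 and KLRC3 as a pair of neighbouring NK receptor genes described below. The log2 change was -0.21 for KLRC1 and ran from -0.051 to 0.17 over the 4 KLRC3 probe sets, so only some of these were opposite in sign. The sequences come from RefSeq on GRCh38.p14, read 5′ to 3′ on the gene's strand, with each CG dinucleotide in capitals. For KLRC1, which has 3 listed starts, the most upstream is shown.
CLEC11A: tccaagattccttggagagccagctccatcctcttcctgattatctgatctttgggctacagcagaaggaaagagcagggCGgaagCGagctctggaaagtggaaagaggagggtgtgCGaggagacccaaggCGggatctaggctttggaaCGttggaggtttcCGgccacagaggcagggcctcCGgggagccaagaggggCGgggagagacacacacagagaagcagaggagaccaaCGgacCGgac
KLRC1: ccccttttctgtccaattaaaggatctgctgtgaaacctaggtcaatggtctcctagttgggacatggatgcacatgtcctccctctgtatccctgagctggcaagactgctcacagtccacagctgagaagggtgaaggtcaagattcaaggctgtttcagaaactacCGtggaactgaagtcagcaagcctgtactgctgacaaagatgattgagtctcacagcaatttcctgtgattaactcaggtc
KLRC3: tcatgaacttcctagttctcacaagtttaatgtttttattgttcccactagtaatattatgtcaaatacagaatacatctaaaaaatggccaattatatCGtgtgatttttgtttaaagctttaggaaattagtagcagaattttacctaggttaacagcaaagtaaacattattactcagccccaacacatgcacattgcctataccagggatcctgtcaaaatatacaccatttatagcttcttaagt
The CLEC11A window held 10 CG dinucleotides at a GC content of 58.8%, and the KLRC1 and KLRC3 windows 1 each at 48% and 32%. CG reads the same on both strands and its matches cannot overlap. A window was found by symbol for 30 of the 48 member genes. Taking the most upstream window of each gene, their median was 2.5 CG dinucleotides per 250 bases. The median was 11 over all 35116 RefSeq promoter windows. Those were not limited to genes on the array or reduced to 1 per gene, so the units differ. Windows with 10 or more made up 5 of these 30 genes (16.7%) and 52.2% of all windows, and 5 of the 30 held none, against 6.06%. These counts describe the letters of the windows; the other 4 genes with 10 or more, CLEC14A, CLEC2L, COLEC12 and KLRG1, had mean log2 levels of 3.36, 4.34, 2.79 and 2.94.

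The selectins are calcium-dependent adhesion molecules of the blood and vessel wall, and neither of those described here passed the threshold. SELP, the selectin of platelets and endothelium, measured 3.89, 3.70 and 4.07 in C2 and 3.81, 3.98 and 3.87 in F3. The F3 values lie inside the C2 range, and the log2 change was -0.0029 (95% interval -0.22 to 0.21), turning positive after median centring. SELE, the cytokine-induced selectin of endothelium, measured 2.82, 2.75 and 2.82 in C2 and 2.82, 2.82 and 2.80 in F3, a log2 change of 0.016 (-0.10 to 0.13). Both genes overlapped between the populations, and leaving out single arrays gave both signs for each.

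Tumour cells are known mainly as carriers of selectin ligands, the sialylated and fucosylated glycans that selectins bind. Of 22 genes listed for ligand synthesis and ligand proteins, 20 were measured by 21 probe sets, and 0 rose and 0 fell in limma (0 also at an unadjusted p under 0.05). Their median log2 change was 0.030, with 12 positive and 9 negative. The smallest p belonged to FUT4, a fucosyltransferase of Lewis x synthesis, at -0.080 (SE 0.05, limma adjusted p = 0.97). All F3 arrays of FUT4 lay below all C2 arrays, the 1 of these 21 probe sets without overlap (4.76%), against 10.3% of all probe sets. FUT3, the Lewis fucosyltransferase, was at 0.089 in one probe set and -0.0088 in the other, FUT9 at -0.081, and CD44, a cell surface protein that can carry selectin ligands, at 0.13 (-0.12 to 0.37).

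The NK-complex group held 15 probe sets of 11 genes, of which 7 had positive and 8 negative changes and 0 passed the threshold. KLRC1 encodes NKG2A, the inhibitory partner of CD94 in the receptor for HLA-E. It measured 2.64, 2.54 and 2.61 in C2 and 2.42, 2.25 and 2.49 in F3, and all F3 arrays lay below all C2 arrays. The means were 2.60 ± 0.05 and 2.39 ± 0.13 (SD, n = 3 each), and the log2 change was -0.21 (SE 0.07, 95% interval -0.38 to -0.05, limma adjusted p = 0.84; -0.26 to -0.14 over fits that drop 1 array). It was lower in F3 in 3 of 3 pairs, at the lowest mean level of any member. KLRC3 encodes NKG2E, a further CD94 partner, and had 4 probe sets, 2 for each of its accessions. Under NM_002261, the set ending in _x_at measured 3.36, 3.38 and 3.27 in C2 and 3.57, 3.46 and 3.50 in F3, with all F3 arrays above all C2 arrays. Its means were 3.34 ± 0.06 and 3.51 ± 0.05 (SD, n = 3 each), and its log2 change was 0.17 (SE 0.06, 95% interval 0.04 to 0.30, limma adjusted p = 0.84). The set ending in _a_at under the same accession gave 0.081 (-0.09 to 0.26). Under NM_007333 the sets ending in _a_at and _x_at gave -0.013 (-0.20 to 0.17) and -0.051 (-0.25 to 0.15). The 4 estimates therefore had no common sign, and the positive interval belonged to 1 of them. In Affymetrix naming the ending _x_at marks probe sets in which some probes may bind other transcripts, and the KLRC genes are close copies of each other. Which transcript the KLRC3 probes bound is therefore uncertain, and so it is for the KLRC1 probe set, which ends in _s_at.

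KLRD1, which encodes CD94 itself, had 2 probe sets under 1 accession whose mean levels lay 2.77 log2 units apart. The set ending in _x_at measured 5.73, 5.72 and 5.81 in C2 and 5.69, 5.88 and 5.81 in F3. The other measured 3.00, 2.91 and 3.03 in C2 and 3.15, 2.93 and 2.98 in F3. Their log2 changes were 0.040 (-0.11 to 0.18) and 0.041 (-0.12 to 0.20) with 95% intervals, the populations overlapped in both, and both signs occurred when single arrays were left out. CLEC7A, which encodes the beta-glucan receptor dectin-1 and belongs to the myeloid group, had the other pair of distant probe sets, 2.26 log2 units apart. The brighter one measured 4.76, 4.75 and 4.78 in C2 and 4.82, 4.82 and 4.81 in F3, with no overlap, and its log2 change was 0.051 (SE 0.05, -0.06 to 0.16, limma adjusted p = 0.97). The dimmer one measured 2.52, 2.47 and 2.53 in C2 and 2.47, 2.64 and 2.55 in F3, with overlap and a log2 change of 0.043 (-0.09 to 0.18). So 2 of the 3 genes with several probe sets agreed in sign between them and KLRC3 did not; the other 45 genes had 1 probe set each.

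**Figure D3:**
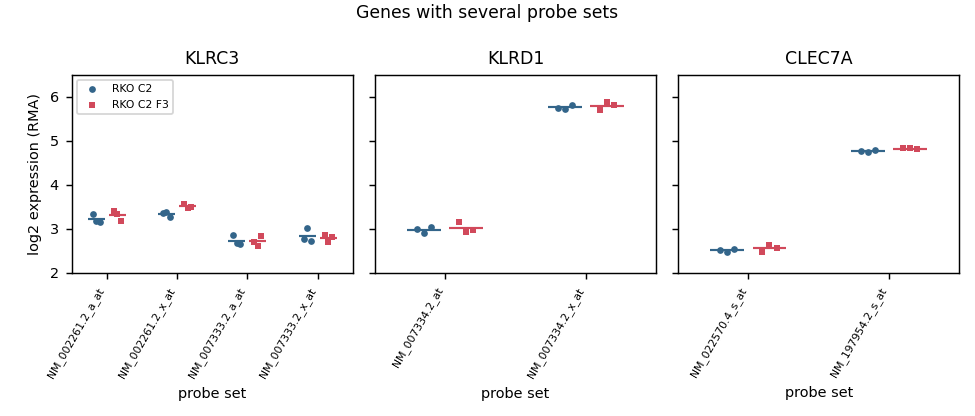
Log2 expression on each array for every probe set of KLRC3, KLRD1 and CLEC7A, with RKO C2 in blue circles, RKO C2 F3 in red squares and the mean of 3 arrays as a bar. The KLRD1 sets lie near 3.00 and 5.78 and the CLEC7A sets near 2.53 and 4.79, while the F3 values exceed all C2 values in 1 of 4 KLRC3 sets and in the brighter CLEC7A set.

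Some of the NK receptors have ligands of the same fold. CLEC2D, the ligand of KLRB1 (CD161), measured 4.46, 4.41 and 4.35 in C2 and 4.48, 4.55 and 4.50 in F3. All F3 arrays lay above all C2 arrays by a narrow margin, with a log2 change of 0.10 (SE 0.05, 95% interval -0.02 to 0.23, limma adjusted p = 0.97). KLRB1 had a mean log2 level of 3.57 over the 6 arrays. CLEC2B, the ligand of KLRF1 (NKp80), and KLRF1 had levels of 3.27 and 2.72. CLEC2B, described here after its values were seen, measured 3.54, 3.21 and 3.30 in C2 and 3.21, 3.21 and 3.16 in F3, lower in F3 in 3 of 3 pairs. Its log2 change was -0.16 (SE 0.08, 95% interval -0.35 to 0.03, limma adjusted p = 0.97), and -0.063 without C2 replicate 1, the highest of the 6 arrays. The remaining members were CLEC2L (4.34), KLRK1 (3.76), which encodes the activating receptor NKG2D, the cadherin-binding receptor KLRG1 (2.94), and CD69 (2.72), an early activation marker of lymphocytes. The populations overlapped for each of these 7 genes, CLEC2B only by arrays that met at 3.21 and KLRG1 only by arrays that met at 2.95. KLRG1 was also lower in F3 in 3 of 3 pairs. Neither the 11 listed ligands of NK lectin receptors, such as the stress-induced MICA and ULBP proteins, nor the 9 listed signalling genes behind C-type lectins matched a named probe set, and they were not analysed here.

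Of the member genes, 16 stand in 1 run of the RefSeq gene order in which at most 5 other protein-coding genes lie between a member and the next. From KLRG1 to KLRC1 the run holds the KLR genes, CD69, CLEC2B and CLEC2D and the myeloid receptors CLEC12A, CLEC12B, CLEC1A, CLEC1B, CLEC7A and CLEC9A. With the brightest probe set of each gene, 10 of the 16 changes were positive and 6 negative, from -0.21 to 0.17 with a median of 0.027. A second run of 4 genes, CLEC4A, CLEC6A, CLEC4D and CLEC4E, ranged from -0.17 to 0.084. Neighbouring genes thus had changes of both signs, and none of the 20 passed the threshold.

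The receptors of myeloid and dendritic cells formed the largest group, with 17 probe sets of 16 genes, all below the median of the table. Of these 11 had positive and 6 negative changes, with a median of 0.049, and 0 passed the threshold. CLEC4A, an inhibitory receptor of dendritic cells, measured 5.31, 5.63 and 5.49 in C2 and 5.35, 5.13 and 5.44 in F3. The populations overlapped and the spread was wide, with means of 5.48 ± 0.16 and 5.31 ± 0.16 (SD, n = 3 each). Its log2 change was -0.17 (SE 0.10, 95% interval -0.40 to 0.06, limma adjusted p = 0.97), ranging from -0.25 to -0.083 when single arrays were dropped. The 3 paired differences were 0.04, -0.50 and -0.05, so that the pair numbered 2 held most of the difference. CLEC4D, which partners the mycobacterial glycolipid receptor CLEC4E, measured 2.77, 2.90 and 2.83 in C2 and 2.78, 2.63 and 2.67 in F3. The F3 value of replicate 1 lay within the C2 range, and the log2 change was -0.14 (SE 0.06, 95% interval -0.28 to 0.0031, limma adjusted p = 0.97).

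CLEC4F, known as a receptor of liver macrophages in rodents, measured 5.22, 5.30 and 5.29 in C2 and 5.30, 5.40 and 5.33 in F3. The F3 values lay above the C2 values without overlap, but the closest arrays almost met (5.303 for F3 replicate 1, 5.302 for C2 replicate 2). The log2 change was 0.072 (SE 0.05, -0.05 to 0.19, limma adjusted p = 0.97). The mannose-binding receptors CD207 (langerin) and CD209 (DC-SIGN) had mean levels of 4.82 and 4.45, and CLEC4G, a receptor of liver and lymph node sinus endothelium, of 4.40. CLEC1A stood at 4.32, CLEC4E at 3.77 and CLEC12A, an inhibitory receptor of granulocytes and monocytes, at 3.39. CLEC1B, the platelet receptor for podoplanin, stood at 3.28 and CLEC9A, a receptor for dead cells on dendritic cells, at 3.12. CLEC4C of plasmacytoid dendritic cells (2.93), the fungal mannan receptor CLEC6A (2.92), CLEC5A (2.91) and CLEC12B (2.67) had the lowest signals of the rest. The populations overlapped for each of these 12 genes.

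In the group of liver, macrophage and B cell receptors 0 of 5 passed the threshold. CD72, an inhibitory co-receptor of B cells, had the largest change and the smallest p of all members. It measured 3.62, 3.71 and 3.58 in C2 and 3.96, 3.87 and 3.77 in F3, and all F3 arrays lay above all C2 arrays. The means were 3.64 ± 0.07 and 3.87 ± 0.10 (SD, n = 3 each), and the log2 change was 0.23 (SE 0.07, 95% interval 0.08 to 0.38, limma adjusted p = 0.73). It was higher in F3 in 3 of 3 pairs, by 0.34, 0.16 and 0.19, and the change stayed between 0.18 and 0.28 when single arrays were dropped. FCER2 (CD23), the low-affinity IgE receptor of B cells, measured 5.33, 5.38 and 5.46 in C2 and 5.34, 5.61 and 5.47 in F3, with overlap and a log2 change of 0.083 (-0.09 to 0.26), which was 0.016 without F3 replicate 2 and 0.15 without F3 replicate 1. CD22, the B cell marker among the listed leukocyte genes, stood at 4.25 ± 0.02 in C2 and 4.34 ± 0.02 in F3 (SD, n = 3 each), with no overlap of arrays and a log2 change of 0.086 (-0.02 to 0.20, limma adjusted p = 0.97). Of the 17 listed leukocyte markers CD22, CD33 and NCAM1 were measured, by 4 probe sets with changes from -0.063 to 0.086, and 0 passed the threshold. CD22 had the 1 positive change, and the other 3 were negative. It was also the 1 of the 4 without overlap (25%), against 10.3% of all probe sets. The mean log2 level of these 4 ran from 4.37 to 4.45 on the C2 arrays and from 4.38 to 4.45 on the F3 arrays; its part in the CD72 value was not tested.

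ASGR1, the major subunit of the asialoglycoprotein receptor by which the liver clears glycoproteins that have lost sialic acid, had the second strongest signal of the members. It measured 7.04, 7.08 and 7.12 in C2 and 7.06, 7.07 and 7.06 in F3. The F3 values lie inside the C2 range, and the log2 change of -0.020 (95% interval -0.13 to 0.09) became positive after repeated quantile normalization. Its partner subunit ASGR2 had a mean level of 4.55, and CLEC10A, the macrophage receptor for galactose and N-acetylgalactosamine, one of 4.51, with overlap between the populations in both.

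**Figure D4:**
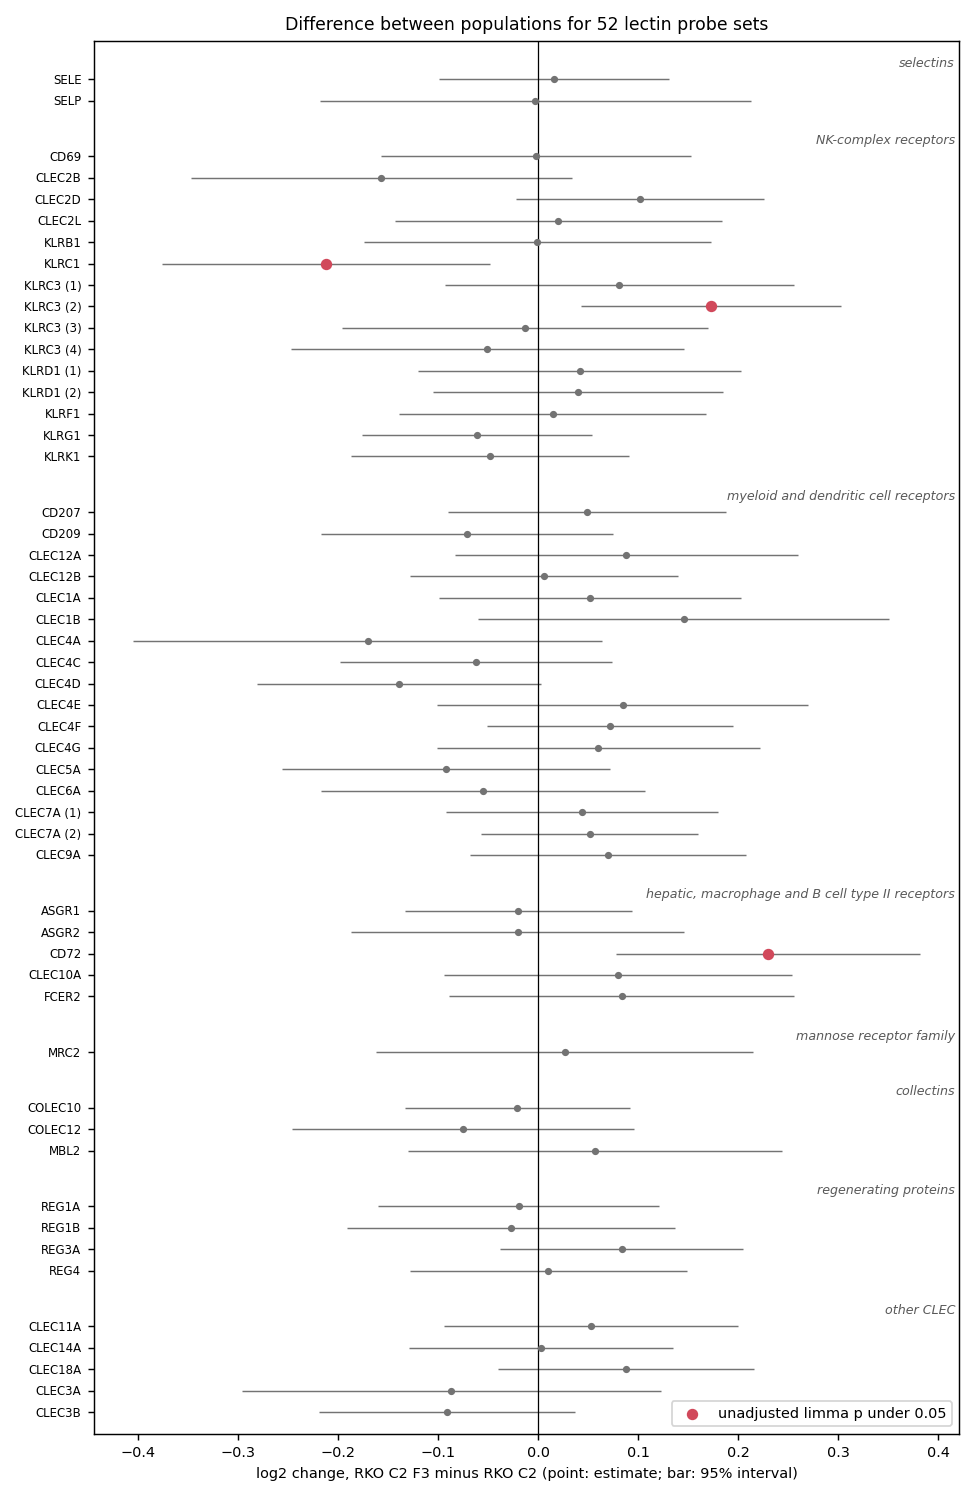
Log2 change, RKO C2 F3 minus RKO C2, of 52 of the 53 probe sets with its 95% interval (bar) from limma, grouped by family, with an unadjusted p under 0.05 in red. All estimates lie between -0.21 and 0.23, and the intervals of CD72, KLRC1 and 1 KLRC3 probe set leave out 0 before adjustment.

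MRC2, a collagen receptor that associates with u-PAR at the cell surface, was the measured member of the mannose receptor family, at 6.76, 6.71 and 6.95 in C2 and 6.75, 6.95 and 6.80 in F3. The populations overlapped almost fully, with means of 6.81 ± 0.13 and 6.83 ± 0.11 (SD, n = 3 each). The interval of its log2 change ran from -0.16 to 0.22, and the paired differences were -0.01, 0.25 and -0.16. The C2 arrays alone spanned 6.71 to 6.95, and all 3 F3 arrays fell between these values.

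The soluble and scavenger collectins, which bind microbial sugars through clustered lectin heads on collagen-like stalks, numbered 3 and none passed the threshold. COLEC10 measured 4.02, 4.01 and 4.05 in C2 and 4.03, 4.02 and 3.97 in F3, a log2 change of -0.021 (-0.13 to 0.09). COLEC12, an endothelial scavenger receptor, measured 2.86, 2.75 and 2.88 in C2 and 2.61, 2.85 and 2.81 in F3, a log2 change of -0.075 (-0.25 to 0.10), which was -0.0026 without F3 replicate 1 and -0.12 without F3 replicate 2. MBL2, the mannose-binding lectin of serum, measured 2.59, 2.66 and 2.51 in C2 and 2.55, 2.57 and 2.82 in F3, a log2 change of 0.057 (-0.13 to 0.24) that was negative without F3 replicate 3. The populations overlapped in all 3 genes.

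The regenerating proteins are small secreted lectins of pancreas and gut, of which REG4 is known from colorectal tumours. REG4 had a mean log2 level of 3.65 and REG1A one of 3.28, with overlap between the populations in both. REG3A, an antibacterial lectin of the gut, measured 3.48, 3.57 and 3.47 in C2 and 3.61, 3.56 and 3.60 in F3. Only F3 replicate 2 fell below the highest C2 value, and the log2 change was 0.083 (SE 0.05, 95% interval -0.04 to 0.20, limma adjusted p = 0.97). REG1B measured 4.83, 4.90 and 5.09 in C2 and 4.92, 4.88 and 4.94 in F3, a log2 change of -0.027 (-0.19 to 0.14) that was positive without C2 replicate 3, the highest array. Of the 4 genes 0 passed the threshold. MUC2, the intestinal mucin and the only measured gene of 7 listed for colon epithelium, stood at 5.12 ± 0.06 in C2 and 5.15 ± 0.06 in F3 (SD, n = 3 each), too few genes to check the label of the line.

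Of the remaining CLEC genes, CLEC3B encodes tetranectin, a secreted lectin that binds plasminogen, the substrate of the urokinase system. It measured 5.29, 5.27 and 5.29 in C2 and 5.24, 5.11 and 5.23 in F3, with all F3 arrays below all C2 arrays. The means were 5.28 ± 0.01 and 5.19 ± 0.07 (SD, n = 3 each), and the log2 change was -0.091 (SE 0.06, 95% interval -0.22 to 0.04, limma adjusted p = 0.97). Dropping single arrays gave changes of -0.12 to -0.048, the weakest without F3 replicate 2. CLEC18A measured 4.50, 4.60 and 4.61 in C2 and 4.67, 4.70 and 4.61 in F3, a log2 change of 0.088 (-0.04 to 0.22). CLEC14A, known from tumour endothelium, had a mean level of 3.36 and CLEC3A, known from cartilage, one of 2.53. Of 6 listed endothelial markers ICAM2, VCAM1 and PECAM1 were measured, at mean levels of 5.04, 3.01 and 5.01, and 0 of the 3 passed the threshold. ICAM2 had the largest change of them, -0.20 (SE 0.07, 95% interval -0.37 to -0.03, limma adjusted p = 0.84).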

How the data were processed

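Total RNA was extracted with Trizol and labelled as biotinylated cRNA, per the labels' protocols. The authors deposited log2 expression values, made with RMA according to the submitters' processing notes. Not given in the sources used here are the RMA version, the build behind the probe sets and which arrays were normalized as one. Quantile normalization in RMA would remove a change shared by most genes. Values ran from 2.08 to 14.1. Accessions were matched without version to RefSeq genes of GRCh38.p14, and 1043 of 1259 probe sets received 1 symbol; the other 216 stayed in the fits, and a member among them would be missed.

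F3 and C2 were compared in limma 3.58.1 (R 4.3.3; lmFit, eBayes, two-sided, Benjamini-Hochberg over all probe sets, threshold 0.05). Members and lists were chosen with earlier results of these data known. Of the 48 member genes 47 are named; 1 enters the counts and is not reported here. Values per array are given for the highest level and the 2 smallest p in each of 8 structural groups, for an unadjusted p under 0.05, for arrays without overlap, and for probe sets of 1 gene over 2 log2 units apart (24 probe sets). Context lists name up to 4 genes by smallest p. Marker lists are given for the measured genes. Protein sequences were not used here.

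Deviations from the population means of same-numbered arrays correlated across probe sets with r = 0.52, 0.18 and 0.26. Arrays of different numbers gave r from -0.38 to 0.15, the highest for C2 replicate 2 with F3 replicate 3, so number 2 hardly stood out. Arrays of 1 number were treated as pairs in the blocked alternative, and the planned fit has no block. Alternatives were a replicate block, median centring, quantile normalization, a filter at the 25th percentile of level, array weights, robust eBayes with an intensity trend, each array left out, an adjusted p under 0.10, an ordinary two-sample test, and other summaries of genes; leaving out probe sets ending in _x_at was added after seeing the data. On simulated data (1259 probe sets, 200 changed, unpaired) limma found 95.5% of the 1.4-fold changes and 99.7% of the 2-fold ones. Of its calls 4.2% were false. With 200 changed probe sets the adjusted threshold is reached at larger p than where 1 passes, as in the real fit. The simulation also had no shrinkage of dim probe sets, so these rates do not carry over to the members.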

Additional observations from a re-analysis of the deposited data

How the results depend on the processing

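The number of members past the threshold was 0 under each alternative run, with the replicate block, an adjusted p under 0.10 and the fit without probe sets ending in _x_at included; the smallest limma adjusted p of a member over these fits was 0.47, with the replicate block. Over all probe sets the number was 1, and 2 with the replicate block, 2 at an adjusted p under 0.10, 0 in the ordinary two-sample test and 0 to 2 with single arrays left out. At an unadjusted p under 0.05 the 3 members became 4 with the replicate block, beside 8.02% of all probe sets. The fourth was CLEC1B (chosen after its value was seen). The number was 0 without dim probe sets, a filter that removed 32 of the 53 members and all of these 3. Single arrays left out gave 2 to 6 of 53, the 6 without C2 replicate 2, beside 5.48% of all probe sets in that fit. Among the members the block changed no other call. The median member change ran from -0.0034 to 0.036 with single arrays left out. The number of member genes above the upper quartile of level was 1, and 2 with the cut lowered to the upper 33.3% of probe sets, ASGR1 being the other. Of the 24 changes described per array, 16 kept their sign in every alternative, and leaving out 1 array moved 17 by over 1.5 times. SELP was at 0.012 with median centring and ASGR1 at 0.024 with quantile normalization. Dropping single arrays gave -0.096 to 0.089 for SELP, -0.0091 to 0.029 for SELE, -0.034 to 0.10 for MRC2, -0.030 to 0.10 for MBL2, -0.080 to 0.047 for REG1B, and -0.0019 to 0.091 and -0.023 to 0.086 for the brighter and dimmer KLRD1 probe sets. The cause of these turns was not tested. Most members had dim signals. RMA can shrink changes near the background, and whether it did so for the members was not tested.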
